A study of Homo sapiens with 9 samples.

Results

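Transcript levels in human liver tumours 24 hours after 1 injection of MRX34, which carries a synthetic copy of miR-34a in liposomes, were compared with levels after dilution buffer. The 3 arrays named for MRX34 and the 3 named for dilution buffer make up this comparison, 6 of the 9 arrays of the study, and 15387 named genes were tested. Because dilution buffer holds neither the mimic nor the lipid, the comparison measures mimic and carrier together.

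All tumours were of Hep3B, an established human hepatocellular carcinoma line, placed by surgery in the liver of Nod/Scid mice, a strain that lacks mature T and B cells. They grew for about 5 weeks, until serum AFP (alpha-fetoprotein) pointed to a mass of 80 to 100 mg. The groups are MRX34 (3 arrays), empty liposomes (3 arrays) and dilution buffer (3 arrays), each given intravenously 24 hours before the tumours were taken. Whole-tumour total RNA, which can hold RNA of the mouse host, was labelled and read on Illumina expression arrays. The dose is not given in the sources used here. Nothing in the labels ties each array to its own animal, and each p-value then reflects only how these samples vary, which may be technical. Hep3B is 1 line, and host tissue in a whole tumour varies from sample to sample.

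MicroRNAs guide Argonaute proteins to messenger RNAs that pair with the seed, bases 2 to 8 of the microRNA, and lower the stability or translation of those messages. The described targets of miR-34a include MYC, cyclins, cyclin-dependent kinases, MET, NOTCH1, BCL2 and SIRT1. A mimic in a liposome is a double-stranded RNA that supplies the mature strand from outside the cell, and liposomes given by vein collect in the liver.

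The mature sequence of human miR-34a-5p is shown with those of miR-449a and miR-449b-5p, which carry the same seed, since the seed defines the messages a mimic can pair with. The seed is in capitals, and sequences are from RefSeq (GRCh38.p14). miR-34a-5p lies at chr1:9151735-9151756 on the minus strand.
hsa-miR-34a-5p: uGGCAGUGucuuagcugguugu
hsa-miR-449a: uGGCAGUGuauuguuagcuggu
hsa-miR-449b-5p: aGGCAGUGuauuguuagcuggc
These are the 3 entries with this seed among 2370 mature names in the table used, which is not complete. The arrays measure longer transcripts and do not read the mature strand or the mimic. The probe for the MIR34A precursor lay above background on 0 of 9 arrays, with log2 signals of 4.69 to 5.08.

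Mean background-subtracted intensity was 323.5, 511.9 and 496 units on the MRX34 arrays and 425.1, 616.4 and 249.3 on the dilution buffer arrays, and 16508 to 20459 named probes lay above background on these 6. Transcripts of 2 liver enzymes, GNMT and OTC, varied widely between arrays of the same group. Their mean, called the liver level here, was 11, 10.05 and 7.73 log2 units with MRX34, against 8.21, 10.06 and 14.32 with dilution buffer. The groups overlapped, and the difference of -1.27 had an exact two-sided permutation p of 0.6 over 20 choices of arrays, where 0.1 is the smallest possible. Without dilution buffer 3 the sign turned, to 0.48 for GNMT and 0.43 for OTC. Dilution buffer 3 had the highest liver level of the 9 arrays. MRX34 2 stood apart in another way: 637 genes lay at least 1 log2 unit below both other MRX34 arrays, against 204 on MRX34 1 and 29 on MRX34 3. For several results below, values without 1 of these arrays stand beside those of the full set.

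Of 6 hepatoma markers, 5 were above background on all 6 arrays, and AFP and GPC3 (glypican-3, an oncofetal proteoglycan) were bright in both groups. The other marker, KRT18, was above background on 0 MRX34 and 3 dilution buffer arrays. AFP read 15.40, 15.31 and 15.21 with MRX34, against 15.37, 15.47 and 15.27 with dilution buffer, close to the top of the scale. Markers of other cells differed in level. PTPRC (CD45, a marker of all leukocytes) was above background on no array, as were 5 of 7 endothelial markers. No leukocyte marker read above 6.99 log2 units on the 6 arrays, where probes below background averaged 4.75 to 4.78. Much of the summed leukocyte signal that follows is therefore at background level. The summed signal of 9 leukocyte markers was 397.9 to 419.1 with MRX34 and 293.9 to 362.6 with dilution buffer, on a linear scale after background correction. That of 8 macrophage markers was 2929 to 3384 with MRX34 and 2024 to 2525 with dilution buffer, most of it CD68, which tumour cells also express and which read 10.8 to 11.46. That of 8 fibroblast and stellate cell markers was 1175 to 1395 with MRX34 and 1006 to 1759 with dilution buffer, most of it PDGFRB, at 9.57 to 10.03. DCN read 5.26 to 7.30 with MRX34 and 5.67 to 9.40 with dilution buffer. The collagen COL1A1 was above background on 0 MRX34 and 3 dilution buffer arrays, COL1A2 on 0 and 1, and COL3A1 on 0 of either. That of 4 erythrocyte markers was 131.6 to 695.2 with MRX34 and 141 to 214.2 with dilution buffer. The summed signal of 7 mature hepatocyte markers, 3918 to 9437 with MRX34 and 4066 to 51570 with dilution buffer, includes GNMT and OTC and CPS1, a urea cycle enzyme at 11.19 to 12.15. Apart from the liver level, which also entered 1 fit as a covariate, the part of these transcripts in the results below was not tested. In bulk tissue, fewer cells of a type and less RNA per cell cannot be told apart. Host cells are of the mouse, and whether these probes, named for human genes, read mouse transcripts was not tested. A marker not above background therefore does not show that its cells were absent.

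With MRX34, the lowest relative to dilution buffer by p were TENT5B, THBS1, GREB1 and PABPC3, and the highest were CLRN3, RPS26P10, DENND2C and OGA, passing over placeholder loci without a gene name. No gene passed the threshold of 0.05 after Benjamini-Hochberg adjustment in limma. The smallest adjusted p, 0.399, was shared by 61 genes. At an unadjusted p under 0.05, 897 genes (5.83%) were higher and 663 (4.31%) lower with MRX34. A fit in which limma weighted each array by its agreement with the others called 1541 genes higher and 1287 lower. Those calls rest mainly on MRX34 3 and dilution buffer 2, whose weights were 4.652 and 8.125 while the other 7 lay between 0.262 and 1.945. With the deposited background-subtracted values scaled by array medians, 39 genes were higher and 244 lower at an unadjusted p under 0.05. The same values after quantile normalization gave 935 higher and 705 lower, so the larger share on the higher side depends on quantile normalization. Without dilution buffer 3 the counts were 453 higher (2.94%) and 385 lower (2.50%), and without dilution buffer 2 they were 480 (3.12%) and 330 (2.15%). Without MRX34 2 they were 612 (3.98%) and 483 (3.14%), and without MRX34 1 they were 664 (4.32%) and 564 (3.67%). The median difference over all genes was 0.04 log2 units, and 54.1% of genes lay higher with MRX34. All 3 MRX34 arrays lay above all 3 dilution buffer arrays for 13% of genes and below them for 8.30%.

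**Figure D1:**
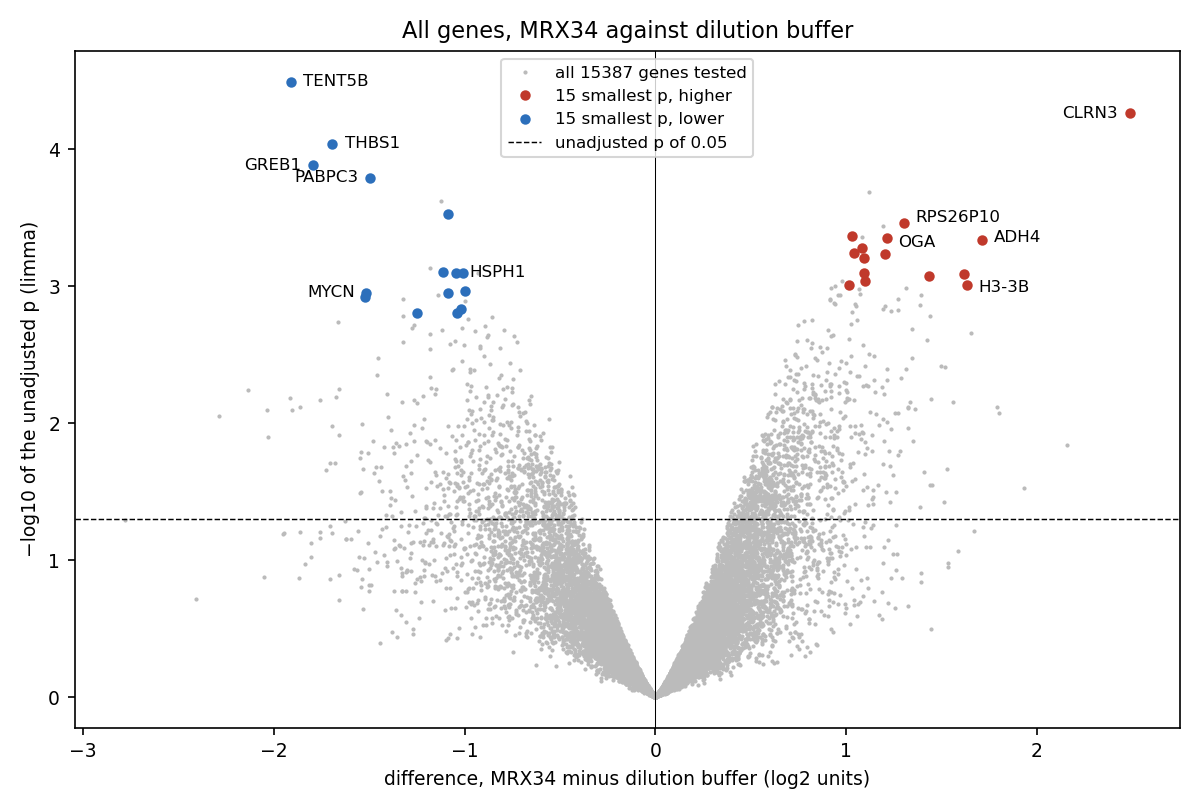
Each point is 1 of 15387 genes, with the difference MRX34 minus dilution buffer in log2 units on the horizontal axis and −log10 of the unadjusted limma p on the vertical axis; coloured points are the 15 genes with the smallest p in each direction, placeholder loci passed over. TENT5B at -1.91 and CLRN3 at 2.49 stand at the top of the 2 arms, and no gene passes the adjusted threshold.

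Among the lower genes, TENT5B, a non-canonical poly(A) polymerase, had the smallest p of all. It read 5.62, 5.64 and 6.02 log2 units with MRX34, 7.90, 7.24 and 7.31 with empty liposomes, and 7.30, 7.69 and 8.02 with dilution buffer. All MRX34 arrays lay below all arrays of both other groups. The difference from dilution buffer was -1.91 ± 0.26 (standard error), 3.75-fold, with an adjusted p of 0.399 in limma.

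THBS1 encodes thrombospondin-1, a secreted matrix protein that restrains angiogenesis. Its levels were 7.35, 7.37 and 7.42 with MRX34, 9.72, 9.27 and 9.37 with empty liposomes, and 8.49, 9.39 and 9.36 with dilution buffer. The 3 MRX34 arrays lay within 0.07 log2 units of each other and below every other array. The difference was -1.70 ± 0.27. GREB1, an oestrogen-responsive gene, read 5.97, 6.63 and 6.81 with MRX34, 7.12, 7.55 and 7.90 with empty liposomes, and 8.41, 8.46 and 7.92 with dilution buffer, with the liposome arrays between. Its difference was -1.80 ± 0.30. PABPC3, a poly(A)-binding protein whose sequence is close to that of PABPC1, so that its probe may read both (PABPC1 itself differed by -0.10), lay -1.49 ± 0.25 from dilution buffer with no overlap.

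PSPH, the last enzyme of serine synthesis, differed by -1.01 ± 0.21, but its second probe gave 0.50 ± 0.27, and the 2 probes of TBCCD1 also had opposite signs. TARS2, the mitochondrial threonyl-tRNA synthetase, differed by -0.997 ± 0.22, and NXN, the thioredoxin-like nucleoredoxin, by -1.02 ± 0.23. The forkhead factor FOXK2 was above background on 1 of 3 MRX34 arrays and on all dilution buffer arrays, at 5.11 to 5.49 against 6.20 to 6.45. PNPLA3, a lipid droplet protein, was likewise above background on 1 MRX34 array, and its liposome arrays overlapped the MRX34 arrays.

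The largest differences by size on this side include genes that rest on 1 array. DNM2, the GTPase that cuts endocytic vesicles from the membrane, read 8.32, 5.27 and 8.42 with MRX34, against 8.77, 8.99 and 9.13 with dilution buffer. SMARCD2, a chromatin remodelling subunit, and ZNF768 had the same shape, with MRX34 2 at 5.60 and 5.68 and the other MRX34 arrays between 7.81 and 8.42. Without MRX34 2 the differences were -0.59 for DNM2, -0.63 for SMARCD2 and -0.75 for ZNF768, against -1.63, -1.54 and -1.51 with it. PTMA, prothymosin alpha, differed by -2.04 ± 0.61, and its liposome arrays (7.91, 9.86 and 8.29) lay as low as its MRX34 arrays (7.45, 9.28 and 9.18).

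Among the higher genes, CLRN3, a clarin-family membrane protein, had the smallest p. It read 8.09, 8.27 and 7.69 with MRX34, 5.74, 6.11 and 4.99 with empty liposomes, and 6.16, 5.46 and 4.97 with dilution buffer. Dilution buffer 3 was not above background, and each MRX34 array exceeded every other array by more than 1 log2 unit. The difference was 2.49 ± 0.37, 5.60-fold, with an adjusted p of 0.399 in limma.

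OGA, the enzyme that removes O-linked N-acetylglucosamine from proteins, read 10.34, 10.70 and 10.10 with MRX34, 9.40, 9.58 and 9.38 with empty liposomes, and 9.50, 9.13 and 8.87 with dilution buffer. The MRX34 arrays lay above both other groups, and the difference was 1.21 ± 0.23. ADH4, a liver alcohol dehydrogenase, read 9.63, 9.62 and 9.31 with MRX34, 7.81, 8.42 and 7.46 with empty liposomes, and 8.46, 7.33 and 7.63 with dilution buffer. It showed the same order, with a difference of 1.72 ± 0.33. H3-3B, a gene for the replacement histone H3.3, read 9.98, 10.38 and 9.73 with MRX34, 7.70, 9.24 and 8.53 with empty liposomes, and 8.43, 8.42 and 8.34 with dilution buffer. Its dilution buffer arrays spanned under 0.1 log2 units, and the difference was 1.63 ± 0.35.

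For other genes on this side the liposome arrays lay beside the MRX34 arrays. NDUFA12, a subunit of respiratory complex I, read 12.53, 12.37 and 12.20 with MRX34, 12.29, 11.79 and 12.31 with empty liposomes, and 11.12, 11.34 and 11.39 with dilution buffer. FETUB, the liver-secreted protease inhibitor fetuin-B, read 7.69, 7.25 and 7.82 with MRX34, 7.83, 7.73 and 8.00 with empty liposomes, and 6.81, 6.38 and 6.28 with dilution buffer. CTBP2, a transcriptional corepressor, averaged 6.70 with MRX34, 6.70 with empty liposomes and 5.26 with dilution buffer. RPS26P10, a ribosomal protein pseudogene whose probe may read RPS26 (itself at -0.56), and SNORA50C, a small nucleolar RNA, also had MRX34 arrays that overlapped the liposome arrays. The comparison with empty liposomes uses the same MRX34 arrays, so the 2 sets of differences are not independent.

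**Figure D2:**
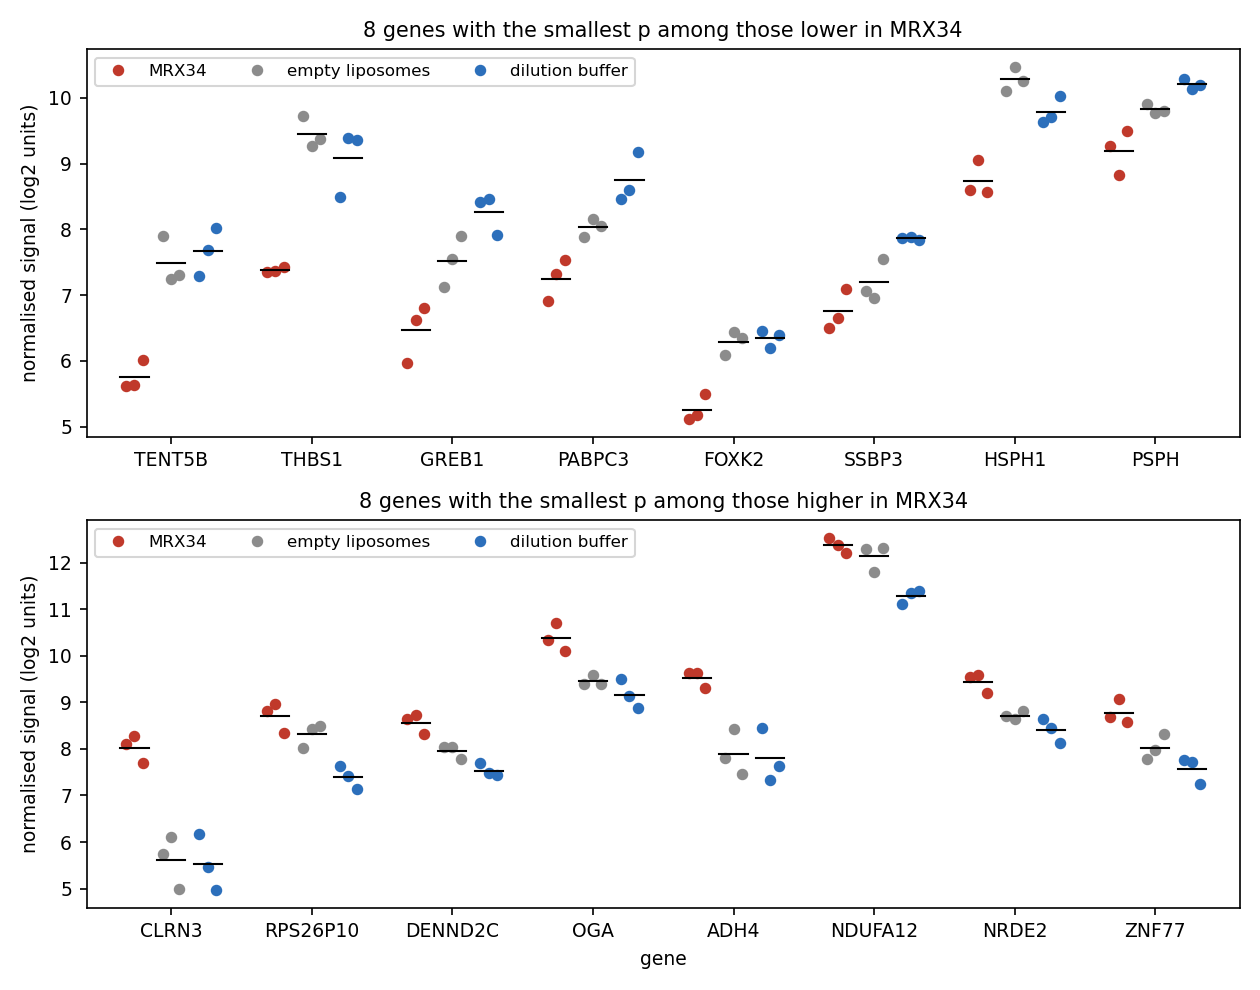
Normalised signal in log2 units (vertical axis) of the 8 genes with the smallest p in each direction, with 3 arrays each of MRX34, empty liposomes and dilution buffer as points from left to right and the group mean as a line. TENT5B, THBS1 and FOXK2 are low in the MRX34 arrays alone, GREB1 and PABPC3 have liposome arrays between the groups, and NDUFA12 has liposome arrays beside those of MRX34.

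Of the listed targets of miR-34a (74 genes described in the literature), 58 were tested. With MRX34, 32 were lower and 26 higher, with a median difference of -0.09 against 0.04 over all genes. With the unadjusted p under 0.05, 9 were lower (15.5%, against 4.31% of all genes) and 3 higher (5.17%, against 5.83%). Without dilution buffer 3, 3 were lower (5.17%, against 2.50% of all genes) and 2 higher. Without MRX34 2 and without dilution buffer 2, 3 were lower (5.17%, against 3.14% and 2.15% of all genes) and 1 higher. Without MRX34 1, 4 were lower (6.90%, against 3.67%) and 3 higher, with a median of -0.00153. The lower count was 10 (17.2%, against 4.86%) without MRX34 3 and 7 (12.1%, against 4.91%) without dilution buffer 1. The 9 of the full set include ATG4B, which was tested because all 3 dilution buffer arrays, where it was high, read it above background. Among genes above background on all 6 arrays, the list median minus that of all genes was -0.12, against -0.13 in the full set.

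MYC, the transcription factor that drives growth and ribosome production, read 10.33, 10.59 and 10.76 with MRX34, 10.97, 10.73 and 11.08 with empty liposomes, and 11.20, 11.25 and 11.21 with dilution buffer. Every MRX34 array lay below every dilution buffer array, and the MRX34 and liposome arrays overlapped. The difference was -0.66 ± 0.19 (adjusted p = 0.435 in limma), and a second probe gave -0.82. MYCN, its neural relative, read 5.68, 5.80 and 5.71 with MRX34, 6.45, 6.92 and 5.91 with empty liposomes, and 6.92, 6.88 and 7.93 with dilution buffer. The MRX34 arrays were the lowest, and the difference was -1.51 ± 0.33.

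E2F1, an activator of S-phase genes that is also listed as a target, lay the other way. It read 7.38, 7.49 and 7.22 with MRX34, 7.34, 6.73 and 5.62 with empty liposomes, and 6.32, 5.80 and 5.41 with dilution buffer. All MRX34 arrays lay above all dilution buffer arrays, 1 of which was not above background, and the difference was 1.52 ± 0.40. FOXP1, a forkhead repressor, was higher by 0.73 ± 0.32, and GMFB, glia maturation factor beta, by 0.55 ± 0.24. ATG4B, an autophagy protease, was above background on 1 MRX34 array (4.67, 4.61 and 6.06) and on all dilution buffer arrays (5.59, 6.54 and 6.95).

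For most of the best known targets the groups overlapped. CCND1, cyclin D1, read 10.79, 10.54 and 10.56 with MRX34, against 10.57, 11.27 and 11.28 with dilution buffer, and differed by -0.41 ± 0.23. CCNE2, cyclin E2, differed by 0.52 ± 0.27. The cell-cycle kinases CDK4 and CDK6 differed by 0.16 ± 0.24 and 0.15 ± 0.21. The receptor tyrosine kinase MET read 9.01, 9.81 and 9.17 with MRX34, against 9.36, 9.47 and 9.69 with dilution buffer. SIRT1, a deacetylase, read 6.83, 7.92 and 7.58 with MRX34, against 7.79, 7.78 and 7.21 with dilution buffer. The differences were -0.18 ± 0.32 for MET and -0.15 ± 0.37 for SIRT1. E2F3 (-0.17 ± 0.19), HDAC1 (0.16 ± 0.18), NOTCH1 (-0.15 ± 0.23) and JAG1 (0.16 ± 0.34) each lay within 1 standard error of 0. JAG1 turned to -0.04 under median scaling. It kept its sign in 23 of 25 alternative settings, and ranged from -0.27 to 0.40 across them. CTNNB1, beta-catenin, read 7.62, 6.64 and 7.42 with MRX34, against 7.07, 7.61 and 9.31 with dilution buffer, where dilution buffer 3 was the high array, and the difference was -0.77 with that array and -0.11 without it. LDHA, lactate dehydrogenase A, was higher by 0.48 ± 0.23, with its nearest arrays at 13.54 (MRX34 1) and 13.53 (dilution buffer 1). Other probes of LDHA gave 0.07 ± 0.37 and 0.85 ± 0.39. AXL was above background on 2 MRX34 arrays and on no dilution buffer array. BCL2, NOTCH2, CD44 and CD274 were above background on no array of either group and were not tested. CCND1, CCNE2 and LDHA had unadjusted p of 0.10, 0.08 and 0.06 in limma, and TENT5B at -1.91 ± 0.26 did not pass the adjusted threshold. Differences well above 1 standard error could therefore go undetected, and overlap here does not show that a target was unchanged.

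**Figure D3:**
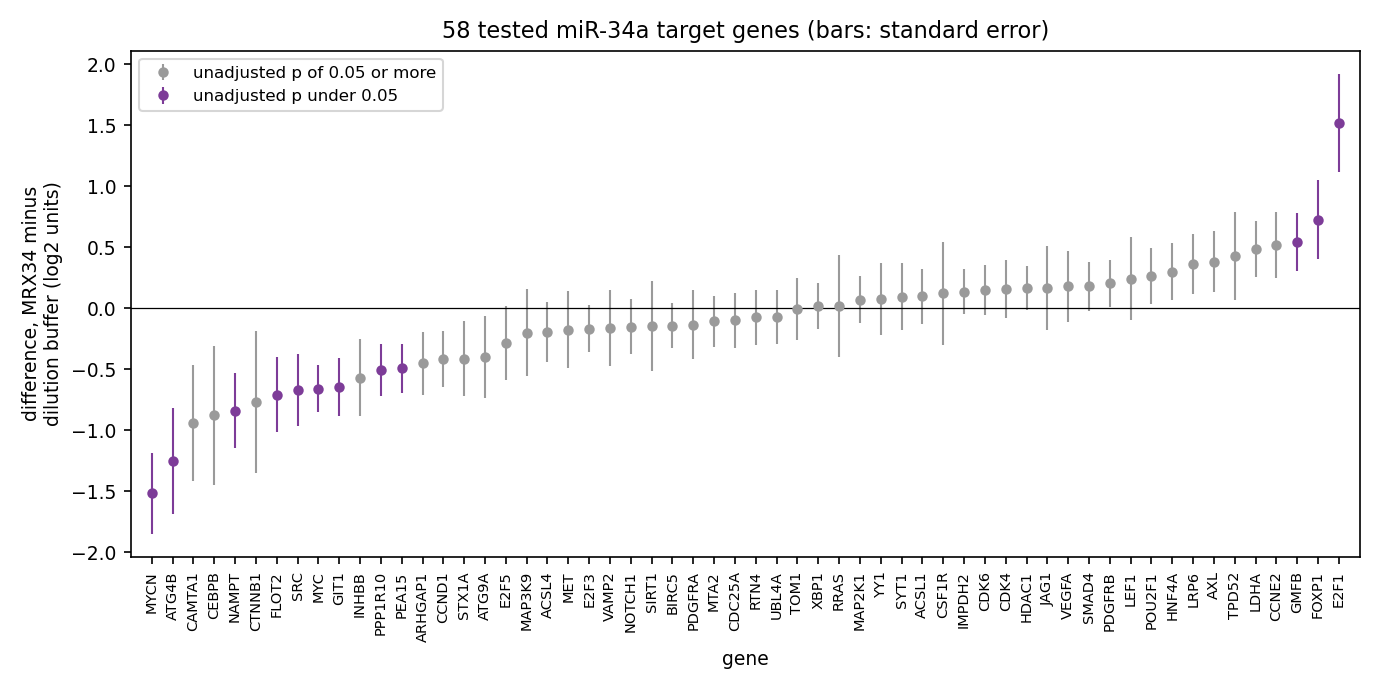
Difference MRX34 minus dilution buffer in log2 units (vertical axis, bars are the standard error) for the 58 tested miR-34a target genes, ordered from lowest to highest. MYCN lies at -1.51 and E2F1 at 1.52, and 46 of the genes have an unadjusted p of 0.05 or more.

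The MYC family and its dimer partners (12 genes tested) had 8 lower and 4 higher, with a median of -0.33, which was -0.12 without MRX34 2. At an unadjusted p under 0.05, 2 were lower (16.7%, against 4.31% of all genes) and 0 higher. These were MYC and MYCN, which are also counted among the miR-34a targets. MAX, the partner MYC needs to bind DNA, differed by 0.22 ± 0.28 and turned to -0.021 under median scaling. Nucleolar ribosome biogenesis genes, many of which MYC is known to activate, were lower in 26 of 39, with a median of -0.17. At an unadjusted p under 0.05, 5 were lower (12.8%, against 4.31% of all genes) and 2 higher (5.13%, against 5.83%), and without dilution buffer 3 or 2 these counts were 3 (7.69%, against 2.50% and 2.15% of all genes) and 1. Without MRX34 2 they were 3 (7.69%, against 3.14%) and 0. NAT10, an RNA acetyltransferase of the nucleolus, read 9.74, 9.55 and 9.78 with MRX34, against 10.17, 10.33 and 10.38 with dilution buffer, without overlap. TSR1 (-0.63 ± 0.21), GRWD1 (-0.63 ± 0.21) and RRS1 (-0.58 ± 0.21), which all act in the assembly of ribosomal subunits, were also among the 5. LTV1, which acts in small-subunit maturation, was higher by 0.59 ± 0.22. POLR1C, a subunit of RNA polymerases I and III, was higher by 0.52 ± 0.22, but its second probe gave -0.18 ± 0.26. Without MRX34 2 and dilution buffer 3 together, 1 gene of this list (2.56%, against 2.11% of all genes) was lower and 0 were higher at that p.

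Heat shock inducible genes lay lower with MRX34. These chaperones and cochaperones are switched on when the factor HSF1 binds repeats of the element GAANNTTC in their promoters. Of 25 tested, 21 were lower and 4 higher, with a median of -0.30. With the unadjusted p under 0.05, 7 were lower (28%, against 4.31% of all genes) and 3 higher (12%, against 5.83%). Without dilution buffer 3 these counts were 6 (24%, against 2.50%) and 1 (4%, against 2.94%), and the median was -0.08. It was -0.19 without dilution buffer 2. Per array, the list mean relative to the mean of the 6 arrays was -0.23, -0.09 and -0.17 with MRX34, 0.23, 0.36 and 0.26 with empty liposomes, and -0.05, 0.17 and 0.38 with dilution buffer. The dilution buffer arrays stood in the order of their liver levels, with dilution buffer 3 at the top of both. MRX34 1 and empty liposomes 1 had the highest liver level of their group but its lowest list mean. With the liver level as a covariate the list median was -0.22. All MRX34 arrays lay below all other arrays.

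HSPH1, a large chaperone of the HSP110 family, read 8.59, 9.06 and 8.57 with MRX34, 10.11, 10.47 and 10.26 with empty liposomes, and 9.64, 9.71 and 10.02 with dilution buffer. DNAJB1, the HSP40 that hands clients to HSP70, read 8.85, 8.02 and 9.15 with MRX34, 10.61, 10.18 and 10.46 with empty liposomes, and 9.64, 10.25 and 10.09 with dilution buffer. Both were lowest on the 3 MRX34 arrays, with differences from dilution buffer of -1.05 ± 0.22 and -1.32 ± 0.31 (adjusted p = 0.399 and 0.403 in limma). BAG3, a cochaperone of selective autophagy, lay -0.87 ± 0.23 from dilution buffer, and CHORDC1, an HSP90 cochaperone, -0.95 ± 0.26. For both, the MRX34 and dilution buffer arrays did not overlap. HSPE1, the mitochondrial cochaperonin, lay the other way at 13.41, 13.17 and 13.09 with MRX34, against 12.30, 12.16 and 12.73 with dilution buffer, and its liposome arrays (13.39, 13.20 and 12.86) lay beside those of MRX34. HSPA4L, another HSP110 member, was higher by 0.69 ± 0.24.

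Promoter sequence was available for 22 of the 25, and 3 of those with the element are shown to place it beside the values. CHORDC1, HSPA1A and SERPINH1, which encode the HSP90 cochaperone, an inducible HSP70 and a collagen chaperone, were chosen after their values were seen. The windows are the 250 bases before the gene start on the gene's strand, from RefSeq (GRCh38.p14), and capitals mark GAANNTTC. They are chr11:90223050-90223299 (minus strand) for CHORDC1, chr6:31815293-31815542 (plus) for HSPA1A and chr11:75562003-75562252 (plus) for SERPINH1.
CHORDC1: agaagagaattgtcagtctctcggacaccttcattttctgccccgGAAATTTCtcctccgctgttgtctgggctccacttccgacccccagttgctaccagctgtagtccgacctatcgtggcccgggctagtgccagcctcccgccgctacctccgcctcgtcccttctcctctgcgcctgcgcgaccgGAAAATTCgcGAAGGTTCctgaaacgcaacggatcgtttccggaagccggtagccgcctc
HSPA1A: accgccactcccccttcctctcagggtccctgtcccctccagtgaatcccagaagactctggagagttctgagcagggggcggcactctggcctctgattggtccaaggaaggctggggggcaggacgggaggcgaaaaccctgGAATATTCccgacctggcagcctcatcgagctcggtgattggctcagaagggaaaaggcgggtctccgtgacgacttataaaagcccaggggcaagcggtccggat
SERPINH1: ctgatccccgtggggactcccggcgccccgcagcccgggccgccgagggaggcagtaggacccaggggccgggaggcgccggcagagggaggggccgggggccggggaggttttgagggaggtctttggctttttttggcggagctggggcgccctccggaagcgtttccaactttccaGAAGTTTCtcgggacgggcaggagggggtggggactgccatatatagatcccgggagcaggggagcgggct
The element reads the same on both strands. It was present in 8 of the 22 windows (36.4%), against 5.85% of all 27305 promoters in the table and 4.01% of the 9797 of tested genes. The 8 genes with it were all lower with MRX34, with a median of -0.55, and of the 14 without it 11 were lower and 3 higher, with a median of -0.14. A match is a description of these letters and not of a bound site. DNAJB1, HSPH1 and BAG3 had no match in this window. SERPINH1 read 9.57, 9.76 and 9.73 with MRX34, against 10.38, 10.65 and 10.39 with dilution buffer, without overlap. HSPA1A, whose sequence is nearly identical to HSPA1B so that probes may read both, read 9.07, 9.74 and 9.99 with MRX34, against 9.94, 10.50 and 10.80 with dilution buffer.

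HIF targets and glycolysis genes, induced when oxygen is low, lay higher with MRX34. Of 45 tested, 34 were higher and 11 lower, with a median of 0.32. At an unadjusted p under 0.05, 6 were higher (13.3%, against 5.83% of all genes) and 0 lower. Without dilution buffer 3 these counts were 2 (4.44%, against 2.94% of all genes) and 0, with a median of 0.19. Without MRX34 2 they were also 2 (4.44%, against 3.98%) and 0. They were 11 (24.4%, against 4.32%) and 0 without MRX34 1, and 13 (28.9%, against 6.71%) and 0 without dilution buffer 1. Without MRX34 3 they were 4 (8.89%, against 5.28%) and 1 (2.22%, against 4.86%). The median was 0.19 with the liver level as a covariate, 0.12 without dilution buffer 3 and MRX34 2 together, and 0.52 without MRX34 1. Per array the list mean was -0.06, 0.29 and 0.32 with MRX34, -0.56, -0.01 and -0.01 with empty liposomes, and 0.10, -0.08 and -0.57 with dilution buffer. Dilution buffer 3 and empty liposomes 1, the arrays with the highest liver levels, were the low ones, and MRX34 1 lay below dilution buffer 1. PFKM, the muscle form of phosphofructokinase, read 8.89, 8.86 and 9.04 with MRX34, 7.91, 8.18 and 8.31 with empty liposomes, and 8.33, 8.11 and 8.21 with dilution buffer. Its MRX34 arrays were above all others, and the difference was 0.71 ± 0.19 (adjusted p = 0.435 in limma). BNIP3L, a mitophagy receptor, was higher by 0.95 ± 0.31 and P4HA1, a collagen prolyl hydroxylase, by 0.95 ± 0.32. The groups overlapped for P4HA1. EPAS1, which encodes HIF-2 alpha itself, lay -0.25 ± 0.19 from dilution buffer. The core motif ACGTG stood in 20 of the 40 available promoter windows of this list (50%), on either strand. It stood in 18.7% of all promoters and in 23.1% of those of tested genes.

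**Figure D4:**
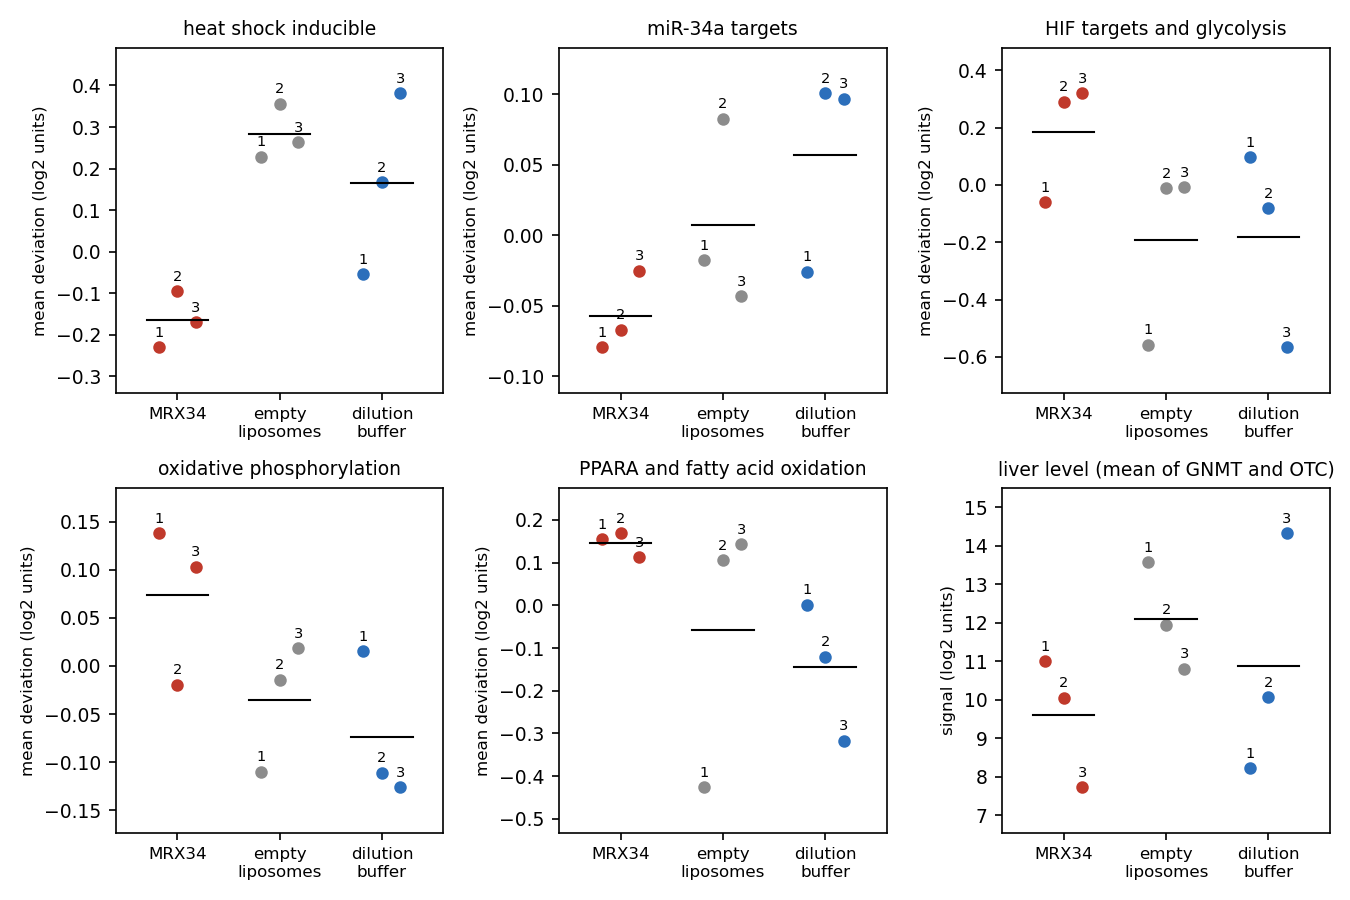
List mean per array (vertical axis, deviation in log2 units from the mean of the MRX34 and dilution buffer arrays) for 5 gene lists, and the liver level, the mean log2 signal of GNMT and OTC, in the last panel; points are arrays marked with their replicate number, lines are group means. All MRX34 arrays are lowest for heat shock inducible genes, while dilution buffer 3 is far from its group for the HIF list (-0.57) and for the liver level (14.32).

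Of 66 oxidative phosphorylation genes, 44 were higher and 22 lower, with a median of 0.17, and 9 were higher (13.6%, against 5.83% of all genes) and 0 lower at an unadjusted p under 0.05. The higher count was 3 (4.55%, against 3.12% of all genes) without dilution buffer 2 and 8 (12.1%, against 3.98%) without MRX34 2. It was 12 (18.2%, against 6.71%) without dilution buffer 1. Leaving out dilution buffer 3, MRX34 1 or MRX34 3 gave 4 (6.06%, against 2.94%, 4.32% and 5.28% in that order). All MRX34 arrays lay above all dilution buffer arrays for 18 of the 66 genes and below for 0, against 13% and 8.30% of all genes. NDUFA1, of complex I, read 12.74, 12.60 and 12.64 with MRX34, 12.39, 12.50 and 12.47 with empty liposomes, and 12.19, 11.76 and 11.84 with dilution buffer, with the liposome arrays between. NDUFC2 (1.44 ± 0.33), NDUFB6 (0.74 ± 0.21) and ATP5F1E (0.58 ± 0.22), subunits of complex I and of the ATP synthase, were also above dilution buffer without overlap. ATP5F1D, another ATP synthase subunit, read 12.24, 10.45 and 12.18 with MRX34, against 12.08, 12.29 and 12.29 with dilution buffer, and its low value is MRX34 2 alone. Without that array its difference was -0.011, against -0.60 with it.

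Of 40 genes of PPARA and fatty acid oxidation, 30 were higher and 10 lower, with a median of 0.32. With the unadjusted p under 0.05, 10 were higher (25%, against 5.83% of all genes) and 0 lower. With dilution buffer 3 left out, 3 were higher (7.50%, against 2.94%) and the median was 0.21, and without MRX34 2, 5 were higher (12.5%, against 3.98%). Without dilution buffer 1 the median was 0.50. TXNIP, the thioredoxin-interacting protein, was higher by 0.85 ± 0.22, BDH1, a ketone body dehydrogenase, by 0.91 ± 0.26, and HADHB, a subunit of the mitochondrial trifunctional protein, by 0.56 ± 0.19. ACADVL, the very long chain acyl-CoA dehydrogenase, lay -0.23 ± 0.20 from dilution buffer.

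Liver detoxification genes showed the same side in part. Of 58 alcohol and drug metabolism genes, 42 were higher and 16 lower, with a median of 0.28. At an unadjusted p under 0.05, 12 were higher (20.7%, against 5.83% of all genes) and 3 lower (5.17%, against 4.31%). The lower count was 1 (1.72%, against 3.14%) without MRX34 2 and 5 (8.62%, against 4.91%) without dilution buffer 1. UGT1A1, among the 3 lower genes, was above background on 2 MRX34, 0 liposome and 3 dilution buffer arrays. ADH6, another alcohol dehydrogenase, read 9.36, 9.36 and 9.28 with MRX34, 8.79, 8.78 and 8.63 with empty liposomes, and 8.82, 8.39 and 8.07 with dilution buffer, with MRX34 above all. GBA3, a cytosolic beta-glucosidase, differed by 1.65 ± 0.40, and UGT2B4 and UGT2B7, which join glucuronic acid to bile acids and drugs, by 0.82 ± 0.21 and 0.74 ± 0.20. ALDH1B1, a mitochondrial aldehyde dehydrogenase, lay the other way at 7.32, 7.58 and 8.06 with MRX34, against 8.90, 8.85 and 8.25 with dilution buffer. In the overlapping list of adult hepatocyte metabolism (38 tested), 26 were higher and 12 lower, with a median of 0.21, and 9 were higher (23.7%, against 5.83% of all genes) and 1 lower (2.63%, against 4.31%) at an unadjusted p under 0.05. That 1 gene was SARDH, sarcosine dehydrogenase, at -0.88 ± 0.29.

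Coagulation and complement genes, secreted by hepatocytes, had 33 of 41 higher and 8 lower, with a median of 0.22. With the unadjusted p under 0.05, 10 were higher (24.4%, against 5.83% of all genes) and 1 lower (2.44%, against 4.31%). They were 4 (9.76%, against 2.94%) and 0 without dilution buffer 3. Without MRX34 2 or dilution buffer 2 the higher count was 5 (12.2%, against 3.98% and 3.12%). C8A, a part of the membrane attack complex, read 8.74, 9.01 and 8.45 with MRX34, 6.69, 7.84 and 7.71 with empty liposomes, and 7.88, 7.30 and 7.37 with dilution buffer. C6 (0.79 ± 0.26) belongs to the same complex, and PROZ, protein Z, differed by 0.71 ± 0.23. C3, the central complement protein, lay the other way at 7.59, 4.95 and 7.91 with MRX34, against 8.23, 8.66 and 8.74 with dilution buffer. All MRX34 arrays were below the dilution buffer arrays, and MRX34 2 was not above background. The difference was -1.73 with that array and -0.80 without it.

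Notch, Wnt and BCL2 family genes are described as restrained by miR-34a. Of 26 Notch pathway genes, 17 were lower and 9 higher, with a median of -0.17, which was -0.012 without MRX34 2 and -0.09 without dilution buffer 2. At an unadjusted p under 0.05, 3 were lower (11.5%, against 4.31% of all genes) and 0 higher. Without MRX34 2 or dilution buffer 3 these counts were 2 (7.69%, against 3.14% and 2.50%) and 0. NOTCH3, a receptor, read 5.58, 6.17 and 5.68 with MRX34, against 6.25, 7.73 and 7.61 with dilution buffer, and SOX9, a transcription factor downstream of Notch, differed by -0.87 ± 0.27. The liposome arrays of both overlapped those of MRX34. Of 39 Wnt pathway genes, 24 were lower and 15 higher, with a median of -0.11, and 3 were lower (7.69%, against 4.31%) and 1 higher (2.56%, against 5.83%) at that p, close to the shares of all genes. Without dilution buffer 2 these counts were 1 and 1 (2.56% each, against 2.15% lower and 3.12% higher). DVL2, which relays the Wnt signal, differed by -1.33 ± 0.39, with its lowest value on MRX34 2 and a difference of -0.84 without that array, and SP5, a Wnt target gene, by 0.72 ± 0.22. Of 24 genes of the BCL2 family and apoptosis, 15 were higher and 9 lower, with a median of 0.16, and 4 were higher (16.7%, against 5.83%) and 0 lower at that p. These counts were 1 (4.17%, against 2.94%) and 0 without dilution buffer 3, and 2 and 2 (8.33% each, against 4.32% and 3.67%) without MRX34 1. Without MRX34 2 or dilution buffer 2 they were 2 (8.33%, against 3.98% and 3.12%) and 0. BAX, a pore-forming killer protein, read 9.12, 7.40 and 8.43 with MRX34, against 8.71, 9.01 and 10.73 with dilution buffer, and the groups overlapped. The difference was -1.17 with all arrays, -0.71 without MRX34 2 and -0.54 without dilution buffer 3.

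Genes that respond to YAP and TGF-beta had 20 higher and 18 lower of 38, with a median of 0.02 that was -0.04 without MRX34 2, and THBS1 is a member. YAP1 itself read 7.66, 8.37 and 7.84 with MRX34, against 8.36, 8.87 and 8.95 with dilution buffer, a difference of -0.77 ± 0.28 with overlapping groups. The 30 poly(A) tail factors, TENT5B and PABPC3 among them, had 17 higher and 13 lower, with a median of 0.07 that was -0.084 without MRX34 2. CSTF3, a cleavage factor for messenger RNA ends, was higher by 0.82 ± 0.20, but 2 of its 3 other probes had the opposite sign. Of 10 genes of O-GlcNAc and hexosamine metabolism, 7 were higher and 3 lower, with a median of 0.15. At an unadjusted p under 0.05, 2 were higher (20%, against 5.83% of all genes) and 0 lower. They were OGA and CMAS (0.57 ± 0.21), a sialic acid activating enzyme. Without dilution buffer 3, dilution buffer 2 or MRX34 2, 1 was higher (10%, against 2.94%, 3.12% and 3.98% of all genes). Of 47 lysosome and autophagy genes, 26 were lower and 21 higher, with a median of -0.06. At an unadjusted p under 0.05, 5 were higher (10.6%, against 5.83% of all genes) and 4 lower (8.51%, against 4.31%). Without dilution buffer 3 or MRX34 2 these counts were 1 (2.13%, against 2.94% and 3.98%) and 0. ATG14, a part of the kinase complex that starts autophagosomes, was higher by 0.73 ± 0.25. The cathepsin CTSL was higher by 0.50 ± 0.19, and its other probes gave 0.34 ± 0.21 and -0.15 ± 0.22. TMEM192 (-0.64 ± 0.22) and ATG4B (-1.25 ± 0.43) lay the other way.

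Of 31 interferon-stimulated genes, 20 were higher and 11 lower, with a median of 0.08, and 1 was higher and 1 lower at an unadjusted p under 0.05 (3.23% each, against 5.83% and 4.31% of all genes). PARP9 was the higher one at 0.57 ± 0.23. The lower one, IFITM1, was above background on the dilution buffer arrays alone. Of 33 genes of NF-kB and inflammation, 22 were lower and 11 higher, with a median of -0.24, and without dilution buffer 3 the median was -0.01. TNF, IL1B, IL6 and CCL2 were not tested, since too few arrays read them above background. Oncofetal liver genes, which the fetal liver and liver cancers share, had 14 lower and 10 higher of 24, with a median of -0.07, and 4 were lower (16.7%, against 4.31%) and 1 higher (4.17%, against 5.83%) at that p. The lower count was 2 (8.33%) without dilution buffer 2, dilution buffer 3 or MRX34 3, against 2.15%, 2.50% and 4.86% of all genes. Without dilution buffer 1 it was 6 (25%, against 4.91%). IGF2, a fetal growth factor, read 7.57, 6.54 and 7.45 with MRX34, 9.32, 7.62 and 9.37 with empty liposomes, and 8.54, 8.50 and 8.55 with dilution buffer, and the MRX34 arrays lay below both other groups. KRT19, a keratin of bile duct cells and progenitors, differed by -1.06 ± 0.28 without overlap. SPINK1, a trypsin inhibitor abundant in liver cancers, was higher at 14.48, 14.76 and 14.70 with MRX34, against 13.96, 14.04 and 13.50 with dilution buffer.

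**Figure D5:**
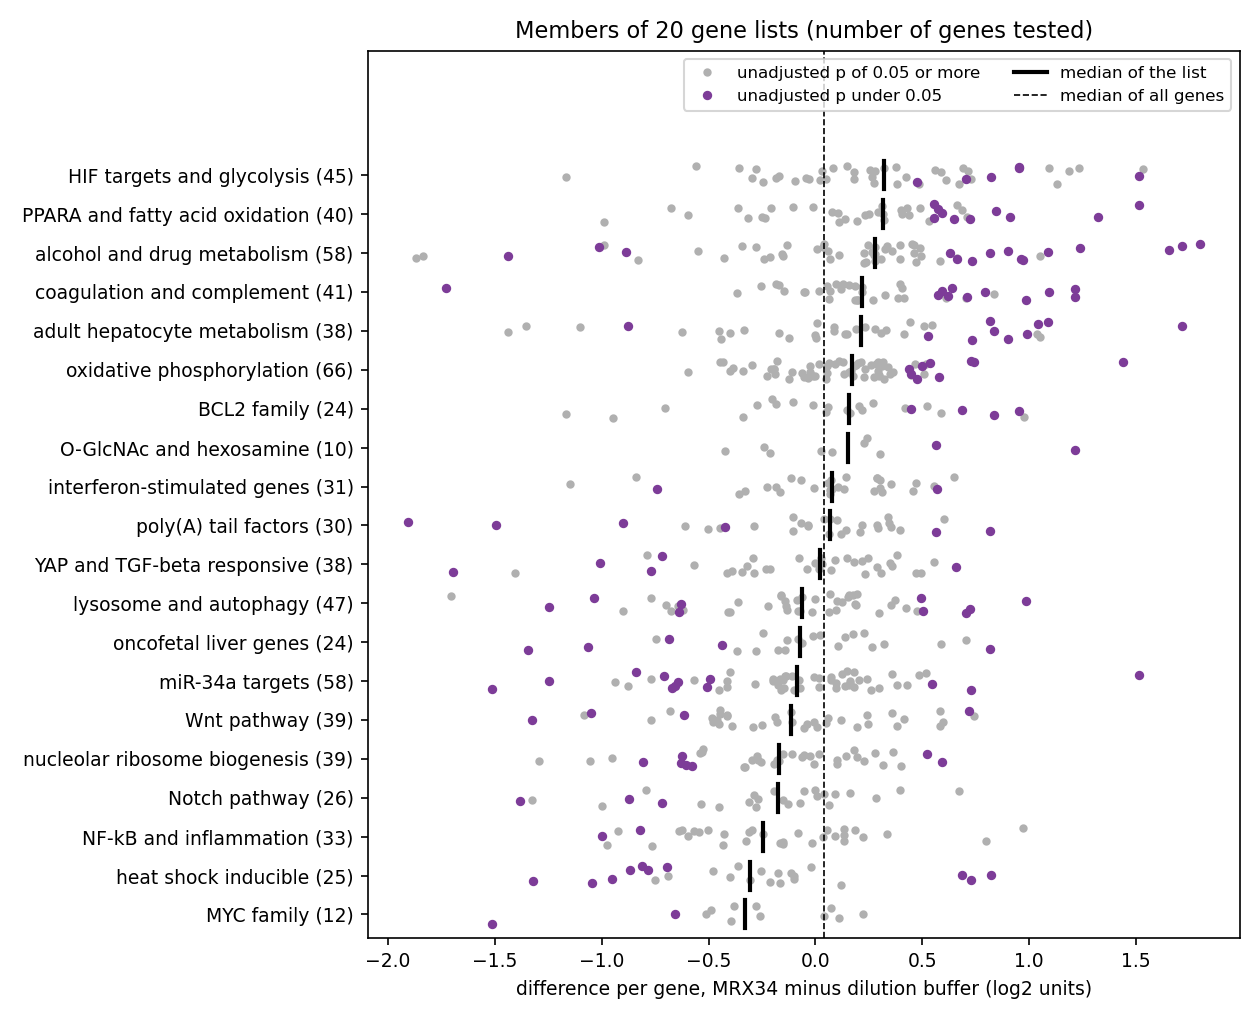
Difference per gene, MRX34 minus dilution buffer in log2 units (horizontal axis), for the members of 20 gene lists (number of genes tested in brackets); coloured points have an unadjusted p under 0.05, bars are list medians and the dashed line is the median of all genes, 0.04. The HIF and PPARA lists have medians of 0.32 at the top, and the heat shock (-0.30) and MYC (-0.33, or -0.12 without MRX34 2) lists are at the bottom.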

How the data were processed

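The deposited table gives 1 intensity and 1 detection p-value per probe and array, per the file headers; its intensity columns hold the same sorted values to within 1.66 units, so they were quantile normalized before deposit. The deposited series table holds background-subtracted intensity values and served as an alternative, either quantile normalized or scaled by array medians. In R 4.3.3 with limma 3.58.1, the intensity values were background-corrected (normexp, controls inferred from detection p), an offset of 16 was added, and quantile-normalized log2 values were taken. Probes with detection p under 0.05 on at least 3 of 9 arrays were kept, with the brightest probe per gene. The offset shrinks the differences of dim genes. Of 47322 probes, 43906 had a gene name, of which 12245 matched no current RefSeq symbol or synonym.

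Group means were fitted to all 9 arrays, with moderated two-sided tests adjusted over 15387 genes; the fit was tested on simulated data. Named genes were the 15 with the smallest p per direction, the 10 largest non-overlapping differences per direction, up to 4 by smallest p (and up to 2 of opposite direction) from each of 20 described lists, and a set of miR-34a targets and liver markers. Members, lists and alternatives were chosen with earlier results of these data known. The number of arrays limits precision. Some genes that the naming rule selects are not reported here.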

Additional observations from a re-analysis of the deposited data

How the results depend on the processing

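The count of genes past the adjusted threshold was 0 in 24 of 25 alternative settings, including each array left out (range 0 to 0), and 2828 with array weights. Genes at an unadjusted p under 0.05 numbered, higher and lower with MRX34, 39 and 244 with median scaling, 1482 and 1073 with no filter on dim probes, and 2883 and 2539 with array weights. With 1 array left out they ranged from 453 to 1261 higher and from 330 to 818 lower, and with dilution buffer 3 and MRX34 2 both left out, a setting chosen after seeing the data, they were 360 and 325. The median of the heat shock list ranged from -0.41 to -0.083 with 1 array left out and was -0.083 with dilution buffer 3 and empty liposomes 1 both left out, also chosen after seeing the data. That of the HIF list ranged from 0.19 to 0.52 with 1 array left out, and was 0.19 with the liver level as a covariate and 0.12 with dilution buffer 3 and MRX34 2 both left out, and that of miR-34a targets from -0.11 to -0.00153. The miR-34a target median was -0.18 with median scaling and -0.16 with array weights. With the liver level as a covariate, 772 genes were higher and 710 lower, and the heat shock median was -0.22. The cause of these shifts was not tested, except that fewer samples and a wider set of probes come with their settings.

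Arrays of the 2 groups share numbers, and deviations of same-numbered arrays correlated at -0.06, 0.14 and -0.15. Those of differently numbered arrays correlated at -0.33 to 0.24. The values show no sign that the numbers pair the arrays, but so few arrays cannot exclude it. The replicate block gave 0 calls, with 1023 genes higher and 820 lower at an unadjusted p under 0.05 on 9 arrays, and 1147 and 781 on 6. A fit with the chip as a block was not run, since the file headers name no chip. Of 152 named genes, 104 passed the adjusted threshold with array weights. The sign turned in at least 1 setting for 11, of which 0 had an unadjusted p under 0.05.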

Other observations

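Basic machinery of the tumour cells lay near the median of all genes. Of 77 cytosolic ribosome genes, 47 were higher with MRX34 and 30 lower, with a median of 0.06, and of 75 mitochondrial ribosome genes 41 were higher and 34 lower, with a median of 0.02. The median was 0.02 for 35 proteasome genes and for 44 genes of DNA replication, and 0.00 for 43 genes of G2 and mitosis. Constitutive chaperones had 17 of 30 higher, with a median of 0.13. The 26 genes of the unfolded protein response were split evenly, 13 and 13, with a median of -0.01. Amino acid catabolism and gluconeogenesis genes had 38 of 54 higher, with a median of 0.16, and 8 were higher (14.8%, against 5.83% of all genes) and 1 lower (1.85%, against 4.31%) at an unadjusted p under 0.05. Small nucleolar RNA probes had 21 of 30 higher, with a median of 0.15, but the median was -0.15 for empty liposomes minus dilution buffer. The medians were -0.09 for 25 apolipoproteins, -0.08 for 25 cholesterol synthesis genes, 0.02 for 21 iron handling genes and 0.10 for 35 genes of the miRNA machinery.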
